A study of Mus musculus with 40 samples.

Results

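Hemoglobin transcripts were followed in bulk RNA from the left somatomotor cortex, as rows of the count table named Hba-a1, Hba-a2, Hbb-bs, Hbb-bt and Alas2. These are 5 of the 55539 features in the table. They were chosen by name, after leading genes and principal components of these same samples had been seen, so their levels and their variation together are given as a description and not as a test. The label they came with was blood content, and it is set against markers of blood cells further on.

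The mice were female 3xTg-AD mice on C57BL/6J, aged 2–4 months, a line with mutant human APP and MAPT transgenes driven in neurons by the Thy1 promoter, used as a model of Alzheimer's disease. Injury was a weight drop closed-head injury (CHI) onto the intact skull, given 1 to 5 times at 1 per day, and every mouse, sham-injured mice included, was exposed to isoflurane. The 12 groups were sham-injured mice (Sham, 4 samples), mice taken 30 min, 4 h or 24 h after 1xCHI (3, 3 and 4 samples), 3xCHI (3, 2 and 4 samples) or 5xCHI (3, 3 and 4 samples), and mice taken 24 h after 2xCHI or 4xCHI (3 samples each). The 24 h samples after 2xCHI and 4xCHI also stood for the state before the next injury. Sham-injured mice of different times and numbers of anesthesia exposures had been combined into 1 group by the study. Mice were euthanized by cervical dislocation under isoflurane and the cortex was flash-frozen, and the methods describe no perfusion of the brain with saline. Of 40 samples 39 were used, without sample 30 (3xCHI at 4 h), which the study also left out. In sample 30 the 4 globin genes took 0.0249% of the counts, inside the range of the others.

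Hemoglobin, the oxygen carrier of red blood cells, is built from alpha chains, beta chains and heme. Its genes are switched on in erythroid precursors in bone marrow and spleen, and mature red cells of mammals have no nucleus, although the youngest of them still hold globin mRNA. In tissue taken with its blood, adult globin mRNA is therefore a usual passenger, and low expression in neurons has also been described. In bulk RNA a smaller number of cells of a type and less RNA per cell cannot be told apart.

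Hba-a1 and Hba-a2 encode the adult alpha chain and lie on the forward strand of chromosome 11, at chr11:32283511-32284465 and chr11:32296489-32297298 in GRCm38 (GENCODE M21). Hbb-bs and Hbb-bt encode the adult beta chains and lie on the reverse strand of chromosome 7, at chr7:103826534-103828096 and chr7:103812524-103813996. Alas2, the erythroid form of the first enzyme of heme synthesis, lies on the forward strand of the X chromosome at chrX:150547375-150570638. The longest open reading frames of Hba-a1 and Hba-a2 are both 429 bases long and differ at 1 base, and those of Hbb-bs and Hbb-bt are both 444 bases long and also differ at 1 base. Between Hba-a1 and Hbb-bs the aligned reading frames are 55.4% identical. Of the 31-base words in the transcripts of the alpha genes, 588 are shared, which is 75.4% of those of Hba-a1 and 92.6% of those of Hba-a2. The beta genes share 400, or 54.4% of those of Hbb-bs and 59.4% of those of Hbb-bt, and no alpha gene shares any with a beta gene.

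The promoters are shown because the 5 genes move together across the samples while lying on 3 chromosomes. Each line gives the 150 bases before the RefSeq transcription start (GRCm38.p6), 5′ to 3′ on the gene's strand. Capitals mark matches, on either strand, to CCAAT motifs, CACCC motifs, TATAA motifs and, in Alas2, a GATA motif. The intervals are chr11:32283522-32283671, chr11:32296342-32296491, chr7:103827929-103828078, chr7:103813924-103814073 and chrX:150547267-150547416 in the order of the lines. GENCODE places the first base of each of these genes further upstream than RefSeq does.
Hba-a1: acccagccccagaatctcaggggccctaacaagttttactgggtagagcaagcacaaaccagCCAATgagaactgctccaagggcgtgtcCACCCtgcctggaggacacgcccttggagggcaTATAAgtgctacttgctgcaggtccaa
Hba-a2: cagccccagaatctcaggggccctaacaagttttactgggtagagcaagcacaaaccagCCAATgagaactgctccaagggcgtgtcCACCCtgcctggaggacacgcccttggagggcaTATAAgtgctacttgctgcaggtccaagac
Hbb-bs: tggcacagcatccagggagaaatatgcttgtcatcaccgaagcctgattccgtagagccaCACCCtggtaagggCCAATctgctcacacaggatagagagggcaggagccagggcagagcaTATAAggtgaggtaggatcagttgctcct
Hbb-bt: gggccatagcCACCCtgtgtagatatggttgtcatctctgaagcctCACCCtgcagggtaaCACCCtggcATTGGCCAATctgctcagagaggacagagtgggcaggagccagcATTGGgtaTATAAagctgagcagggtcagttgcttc
Alas2: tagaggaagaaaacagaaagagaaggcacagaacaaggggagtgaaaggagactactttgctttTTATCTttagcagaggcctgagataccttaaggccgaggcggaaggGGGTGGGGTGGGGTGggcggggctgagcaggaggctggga

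The Hba-a1 and Hba-a2 promoters share an unbroken run of 147 bases. Those of Hbb-bs and Hbb-bt were 70.9% identical over 151 aligned positions, with a longest shared run of 14 bases. Each globin promoter holds at least 1 CCAAT motif, 1 CACCC motif and 1 TATAA motif, which erythroid promoters are known for. The TATAA motif begins 27 to 30 bases before the start in all 4. This combination is found in 360 of 32851 promoters of the same length, or 1.1%. Taken singly, CCAAT motifs are found in 24.5%, CACCC motifs in 37.4% and TATAA motifs in 14.2% of promoters. The Alas2 window holds 3 CACCC motifs, which read GGGTG on the strand shown. No match in the 5 windows overlaps another. It also holds 1 match to the GATA motif (AGATAA or AGATAG or TGATAA or TGATAG), which is found in 16.0% of promoters. A match of letters is a description of sequence only.

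The globin genes were plainly detected in every sample, and their level differed widely between mice of the same group. Levels are in CPM, read counts per 1000000 counts of a library, with library sizes scaled by TMM, a method that removes differences in composition between libraries. The summed CPM of Hba-a1, Hba-a2, Hbb-bs and Hbb-bt ranged from 85.8 to 507 over the 39 samples, a 5.91-fold range, with a median of 180. The lowest sample, after 1xCHI at 30 min, had 1603 globin counts of 19017919, a share of 0.00843% (95% Wilson interval 0.00803% to 0.00885%). The highest, of the same group, had 10611 of 22074028, or 0.0481% (0.0472% to 0.0490%). These intervals cover counting error only and do not meet. Total counts per sample ran from 15925995 to 27859530, so counting error was small beside the differences between mice.

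Among the alpha genes, Hba-a1 ranged from 21.5 to 124 CPM with a mean of 52.1 ± 24.5 (SD, n = 39). Hba-a2 ranged from 28.2 to 157 CPM with a mean of 64.3 ± 30.4 (SD, n = 39). Among the beta genes, Hbb-bs had the highest mean of the 5, at 75.9 CPM, with a range of 29.6 to 180 CPM. Hbb-bt had a mean of 17.4 CPM and a range of 5.97 to 45.9 CPM. Alas2 was present at 8 to 98 counts per sample, or 0.426 to 4.60 CPM. Per kilobase of exon, the mean levels were 98.8 CPM for Hbb-bs, 96.4 for Hba-a2, 64.2 for Hba-a1, 24.7 for Hbb-bt and 0.824 for Alas2. The split of reads within each globin pair is an estimate, because their sequences are nearly the same.

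In Sham, the globin sum was 188, 230, 274 and 170 CPM in samples 6, 20, 35 and 39. The 30 min samples after 1xCHI held the extremes of the whole series: samples 13 and 14 had 507 and 496 CPM, the highest of all 39, and sample 27 had 85.8 CPM, the lowest. After 1xCHI the sum was 219, 119 and 272 CPM at 4 h and 258, 226, 159 and 165 CPM at 24 h. Samples taken 24 h after 2xCHI had 337, 217 and 174 CPM. After 3xCHI the sum was 119, 113 and 232 CPM at 30 min, 140 and 351 CPM at 4 h, and 376, 235, 127 and 152 CPM at 24 h. After 4xCHI it was 173, 275 and 115 CPM. After 5xCHI it was 169, 131 and 227 CPM at 30 min, 180, 91.4 and 246 CPM at 4 h, and 223, 148, 125 and 130 CPM at 24 h. Samples above the Sham range and samples below it were both found after 1xCHI, 3xCHI and 4xCHI, and no sample lay above it after 5xCHI.

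**Figure D1:**
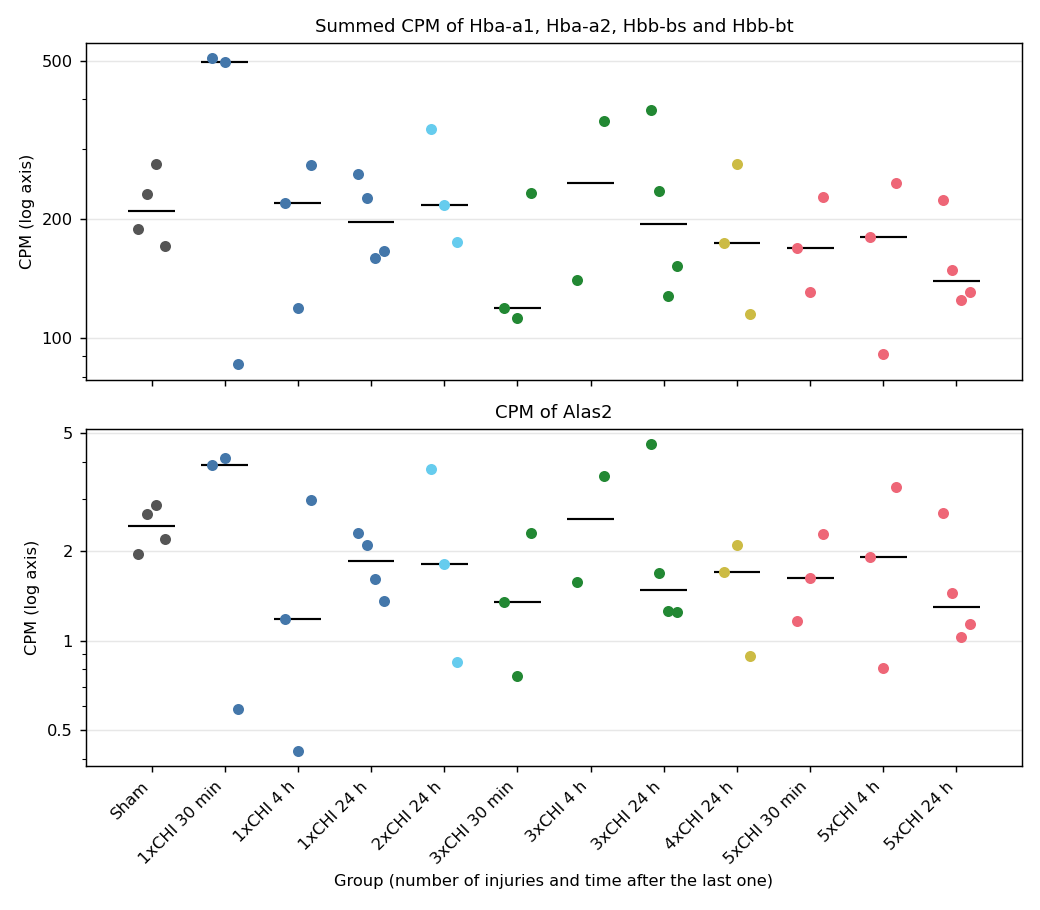
Summed CPM of the 4 globin genes (upper panel) and CPM of Alas2 (lower panel) in each of 39 samples, on log axes, by group, colored by number of injuries, with a line at the group median. The 3 samples of 1xCHI at 30 min hold the highest values (507 and 496 CPM) and the lowest (85.8 CPM) of the globin sum.

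Ordered by mean, the globin sum was highest 30 min after 1xCHI (363 ± 240 CPM, SD, n = 3), followed by 3xCHI at 4 h (245 ± 150, n = 2), 2xCHI at 24 h (243 ± 84.5, n = 3), 3xCHI at 24 h (222 ± 112, n = 4) and Sham (216 ± 46.4, n = 4). The remaining groups were 1xCHI at 4 h (203 ± 78.0, n = 3), 1xCHI at 24 h (202 ± 48.1, n = 4), 4xCHI at 24 h (188 ± 81.1, n = 3), 5xCHI at 30 min (175 ± 48.3, n = 3), 5xCHI at 4 h (172 ± 77.7, n = 3), 5xCHI at 24 h (157 ± 45.4, n = 4) and 3xCHI at 30 min (155 ± 67.3, n = 3). In this order, each of the 11 neighbouring pairs overlapped, for the sum and for each gene. Of the 66 pairs of groups, all overlapped for Hba-a1, Hba-a2, Hbb-bs and Alas2, and 65 for Hbb-bt. The exception was Hbb-bt in Sham (15.7 to 24.1 CPM) against 5xCHI at 24 h (10.2 to 13.7 CPM), a pair whose direct difference was not among the comparisons fitted. For this pair, 1.06% of all tested features had a Sham range wholly above the other. Over all pairs of groups and all tested features, 9.22% of ranges did not overlap, against 1 of 330 for the members.

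Few genes of a like level varied as much over these samples, which is given as a description. On the log2 scale, the SD over the 39 samples was 0.61 for Hba-a1, 0.60 for Hba-a2, 0.61 for Hbb-bs, 0.68 for Hbb-bt and 0.60 for Alas2, against a median of 0.21 over the 15224 features tested. By this SD the 5 genes ranked from 197 to 324 of 15224. Among features within 2-fold of the same mean, 34 of 4935 varied more than Hba-a1, 27 of 4558 more than Hba-a2, 24 of 4256 more than Hbb-bs and 44 of 4813 more than Hbb-bt. For the less abundant Alas2, 130 of 2517 did. The groups held 14.5% to 20.8% of the variance of the members, and 29.0% of that of the median feature.

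Each injury group was compared with Sham, each injury with the state before it, and the times after injury with each other, in edgeR's quasi-likelihood test across all 15224 features. None of the 5 genes passed an adjusted p of 0.05 in any of the 15 comparisons. In those 75 tests 0 members had an unadjusted p under 0.05 in edgeR, and DESeq2 called 0, with 1 of its values (Alas2, 1xCHI against Sham) undefined. Few features of any kind passed: edgeR called 0% of all features in each comparison except that between times, where it called 0.0328%. DESeq2 called 1 to 54 features in 7 of the comparisons and none in the others, 0.0554% of its tests over all 15. The members' count thus did not stand apart from the background.

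For the number of injuries, 5 of 5 members were lower than Sham after 5xCHI by value, and none of the differences passed the test. The 5 genes varied together from mouse to mouse, so they are not 5 separate observations. The 5xCHI log2 fold changes against Sham were -0.42 for Hba-a1 (SE 0.34, edgeR adjusted p = 0.590), -0.24 for Hba-a2, -0.38 for Hbb-bs, -0.55 for Hbb-bt and -0.48 for Alas2. The median over the members was 0.15 for 1xCHI, 0.09 for 2xCHI, -0.13 for 3xCHI, -0.20 for 4xCHI and -0.42 for 5xCHI, beside medians over all features between -0.01 and 0.01. When 1 sample was left out these medians moved widely, from 0.04 (without sample 13) to 0.32 (without sample 35) for 1xCHI, from -0.16 (without 19) to 0.28 (without 29) for 2xCHI, from -0.40 (without 3) to 0.05 (without 1) for 3xCHI and from -0.68 (without 25) to 0.04 (without 40) for 4xCHI. For 5xCHI they ran from -0.55 to -0.33. At an unadjusted p under 0.05, where no member lay, the background was 16.7% of features for 1xCHI, 4.49% for 2xCHI, 4.89% for 3xCHI, 1.64% for 4xCHI and 10.4% for 5xCHI.

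After each injury, the value farthest from 0 was that of Hba-a2 at 30 min after 1xCHI, a log2 fold change of 0.87 against Sham (SE 0.44, edgeR adjusted p = 0.265). There the others were 0.69 for Hba-a1, 0.70 for Hbb-bs, 0.76 for Hbb-bt and 0.26 for Alas2. The background of unadjusted calls was 19.5% at 30 min, 10.5% at 4 h and 5.98% at 24 h after 1xCHI. Later after 1xCHI, the log2 difference of Alas2 from Sham was -0.65 at 4 h and -0.40 at 24 h, while those of the globin genes lay between -0.16 and 0.01. With 1 sample left out, Alas2 at 4 h ran from -1.57 (without sample 36) to -0.22 (without sample 16). At 30 min after 3xCHI the values against 2xCHI were of the opposite sign to those after 1xCHI, from -0.80 for Hba-a1 to -0.53 for Hbb-bt, with SE of 0.48 and 0.54. With 1 sample left out, the median of the members ran from -1.10 (without sample 22) to -0.29 (without sample 19), and Alas2 was 0.12 without sample 19. Whether the first and the third injury differed in this was not tested. There the background was 1.89% at 30 min, 2.01% at 4 h and 4.57% at 24 h. After 5xCHI against 4xCHI, the 15 values lay between -0.32 and 0.33, and between -0.62 (without sample 32) and 0.72 (without sample 10) with 1 sample left out. The background was 6.34% at 30 min, 5.33% at 4 h and 6.47% at 24 h. Between times, edgeR's unadjusted p was 0.327 to 0.662 for the members and under 0.05 for 4.22% of features.

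**Figure D2:**
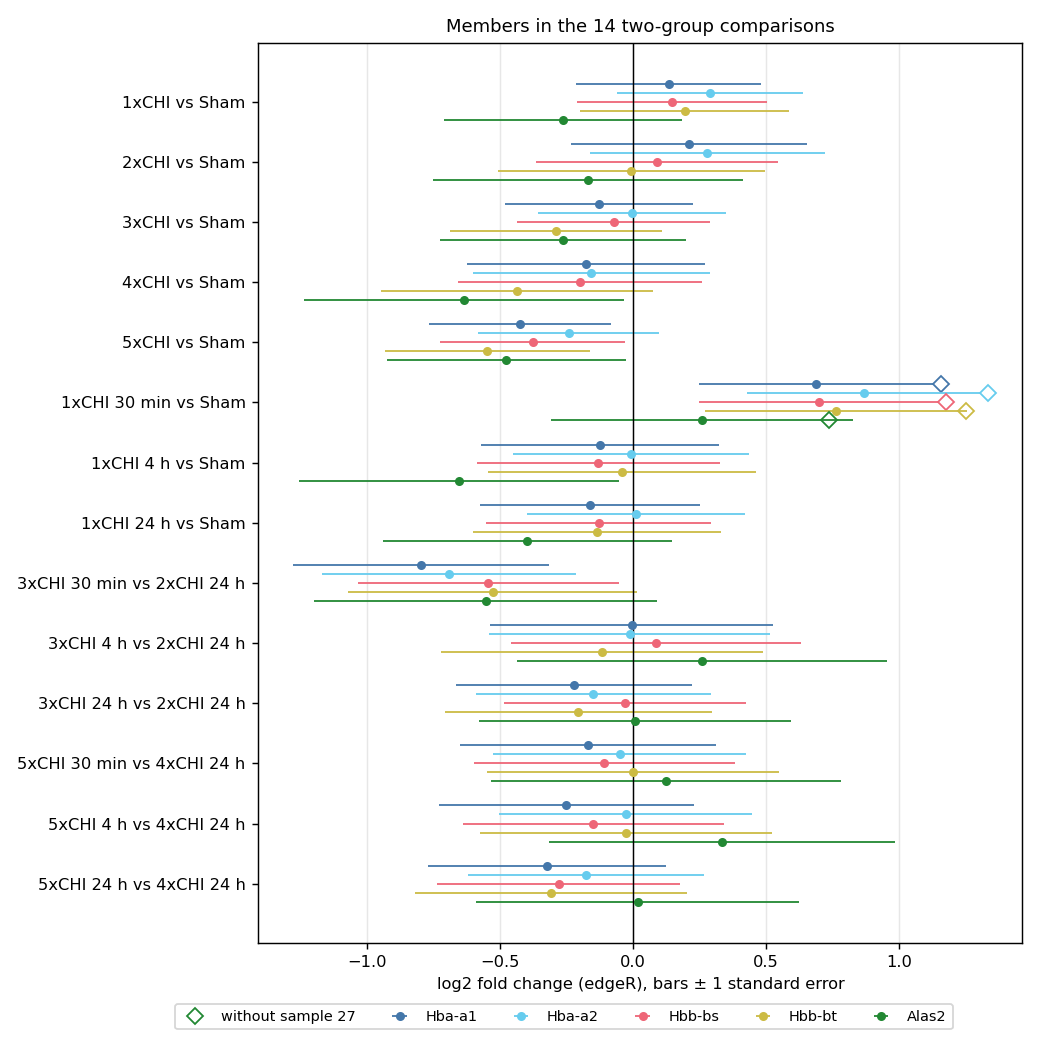
Log2 fold changes of the 5 members in the 14 comparisons of 2 groups, with bars of 1 standard error, and open diamonds for the values without sample 27. No member passed the adjusted threshold with all 39 samples. Without sample 27, 4 of 5 did for 1xCHI at 30 min against Sham, where Hba-a2 moves from 0.87 to 1.33. In that edgeR fit 13.0% of all features were called higher. With the sample-number split (described below) added as a covariate to that fit, 0 members passed and 1.86% of features were called higher.

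The result 30 min after 1xCHI rests on sample 27. Without it, 4 of the 5 members were higher than in Sham at an adjusted p under 0.05 in edgeR, with only samples 13 and 14 left in the group. The log2 fold changes were then 1.33 for Hba-a2 (SE 0.41, adjusted p = 0.0246), 1.16 for Hba-a1 (adjusted p = 0.0422), 1.18 for Hbb-bs (adjusted p = 0.0433) and 1.25 for Hbb-bt (adjusted p = 0.0491). Alas2 had 0.74 (SE 0.57, adjusted p = 0.339). Without sample 27, however, edgeR called 3602 of 15244 features in this comparison, 1985 of them higher, so the background of higher calls was 13.0%. DESeq2 called 3 members higher without sample 27, with a background of 14.6%. Samples 13 and 14 both belong to the samples numbered 1 to 18, and 3 of the 4 Sham samples to those numbered 19 to 40, a split known from an earlier look at these data and not a batch named by the study. With that split as a covariate and without sample 27, edgeR called 0 members, the smallest adjusted p being 0.0767 for Hba-a2, with a background of 1.86%. The log2 fold changes were as large in that fit, at 1.33 for Hba-a2, 1.2 for Hba-a1, 1.22 for Hbb-bs and 1.36 for Hbb-bt. Samples 13 and 14 also both lay outside the Sham range, on the same side, in 5 of 14 other gene lists. The share of all features for which this held was not computed, so the count does not set these lists apart from other genes. Platelet markers, summed, were 7.70 and 6.88 CPM in these samples, 5.84 CPM in sample 27 and 4.02 to 5.37 CPM in Sham. Genes of hemoglobin and heme clearance came to 3078 and 3047 CPM, against 2354 CPM in sample 27 and 2252 to 2615 CPM in Sham. The other globins came to 68.1 and 53.0 CPM, against 46.7 CPM and 42.8 to 51.4 CPM. Neuronal markers were below Sham, at 8120 and 8122 CPM against 9382 CPM in sample 27 and 8596 to 9370 CPM in Sham. So was the list of red cell membrane and maturation genes, at 372 and 407 CPM against 484 CPM and 439 to 521 CPM. Their part in the result was not tested.

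Alpha and beta genes, on different chromosomes and with no shared sequence of 31 bases, varied together from mouse to mouse. Over the 39 samples, the log2 CPM of the alpha sum and of the beta sum had a Pearson r of 0.985 and a Spearman rho of 0.978. With the group means taken out, r was 0.987, so the agreement lay within groups as well. It was 0.989 in samples 1 to 18, 0.979 in samples 19 to 40 and 0.980 without the 2 samples farthest from the median. Within the pairs, r was 0.983 for Hba-a1 with Hba-a2 and 0.952 for Hbb-bs with Hbb-bt, where reads are shared between the copies. Alas2, which was counted at most 98 times per sample, had r of 0.877 and rho of 0.898 with the globin sum. With the group means taken out, this r was 0.923. All values of a sample share 1 library and its depth, and no p is given.

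**Figure D3:**
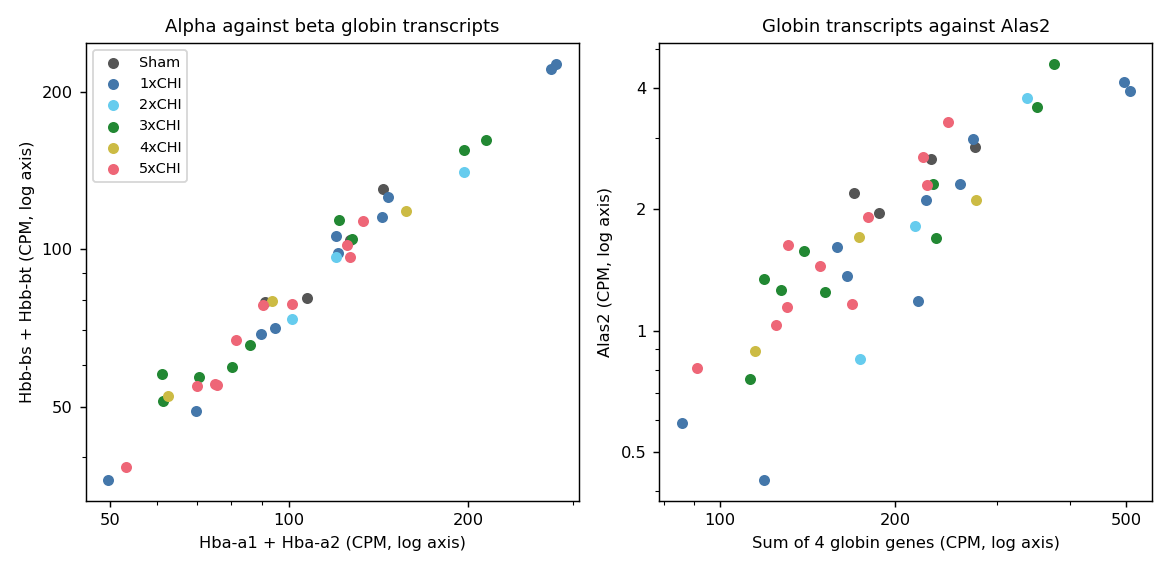
Left, summed CPM of Hba-a1 and Hba-a2 against that of Hbb-bs and Hbb-bt; right, summed CPM of the 4 globin genes against that of Alas2; each point is 1 of 39 samples, colored by number of injuries, on log axes. The alpha and beta sums lie close to a line (Pearson r 0.985), and Alas2 follows with more scatter (0.877).

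The ratio of alpha to beta counts was nearly fixed while the level moved 5.91-fold. It was 1.26 ± 0.0932 (SD, n = 39), with a range of 1.06 to 1.42. Its SD on the log2 scale was 0.11, and counting error alone gives about 0.05. By group, the mean ratio lay between 1.16 ± 0.0870 (3xCHI at 30 min, n = 3) and 1.34 ± 0.0872 (2xCHI at 24 h, n = 3), with 1.2 ± 0.0990 in Sham (n = 4).

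Within the alpha pair, Hba-a2 per Hba-a1 was 1.24 ± 0.0980 (SD, n = 39), from 0.994 to 1.57. Within the beta pair, Hbb-bs per Hbb-bt was 4.54 ± 0.711 (SD, n = 39), from 3.27 to 6.06, with a log2 SD of 0.22 where counting error gives about 0.10. That error takes the estimates of both copies as read counts and leaves out any error in dividing the reads they share. This ratio was 4.06 ± 0.388 in Sham (n = 4) and 4.09 ± 0.488 after 1xCHI (n = 10). It was 4.54 ± 0.678 after 2xCHI (n = 3), 4.83 ± 0.634 after 3xCHI (n = 9), 5.01 ± 0.596 after 4xCHI (n = 3) and 4.79 ± 0.869 after 5xCHI (n = 10). The range was 3.53 to 4.41 in Sham and 3.81 to 6.06 after 5xCHI. Of the 11 injured groups, 3 lay wholly above the Sham range: 3xCHI at 4 h (4.58 to 5.25), 3xCHI at 24 h (4.44 to 5.29) and 4xCHI at 24 h (4.49 to 5.66). For Hba-a2 per Hba-a1 3 groups also lay wholly above Sham (0.994 to 1.22), namely 1xCHI at 30 min, 3xCHI at 30 min and 5xCHI at 24 h, and for alpha to beta 0 did. No test was made of these ratios. The groups were all set against the same 4 Sham samples, and no share over other genes was taken beside these counts.

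How the deposited counts divided each pair can be read from their decimals. Hba-a1 and Hba-a2 were not whole numbers in 37 of 39 samples, yet their sum was whole in 39 of 39, within 0.02. The same held for Hbb-bs and Hbb-bt. The sum of Hba-a1 and Hbb-bs, which are not copies of each other, was whole in 3 samples. Alas2 was whole in 39. The alpha sum and the beta sum are thus counts of reads, whereas the level of each copy is an estimate of how reads common to both were divided.

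Alas2 was measured at 9.30 ± 2.22 counts per 1000 globin counts (SD, n = 39), from 3.58 to 13.4. Its log2 SD of 0.40 compares with about 0.27 from counting error, given the 8 to 98 counts behind each value. Sham had 11.3 ± 1.2 (n = 4), with a range of 10.4 to 12.9. After 1xCHI it was 7.96 ± 2.21 (n = 10), with a range of 3.58 to 11.0, and after 5xCHI 10.1 ± 2.05 (n = 10). Of the 11 injured groups, 3 lay wholly below the Sham range and 0 above it. These were 1xCHI at 30 min (6.86 to 8.33, with samples 13, 14 and 27 close together although their globin sums differed widely), 1xCHI at 24 h (8.24 to 10.2) and 4xCHI at 24 h (7.64 to 9.82). The group of 1xCHI at 4 h had a lower mean, 6.66 ± 3.86 (n = 3), and a range of 3.58 to 11.0. None of these differences was tested. All 11 groups were set against the same 4 Sham samples, and no share over other genes was taken beside the count.

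Of the other features of the table, none followed the members as closely as they followed each other. Among 15219 other tested features, the Spearman rho with the summed CPM of the 5 members had a median of -0.02 and ranged from -0.59 to 0.63, over 39 samples. Above 0.5 there were 21, above 0.7 there were 0, and below -0.5 there were 26. The members themselves had 0.898 (Alas2) to 0.987 (Hba-a2), each being part of the sum. The 10 features most alike were P4ha1 (rho 0.634), Cops8 (0.587), E130114P18Rik (0.584), Eef1e1 (0.566), Gtf2e2 (0.562), Gm2464 (0.562), Timm17b (0.555), Cript (0.552), Bbip1 (0.548) and Pfdn4 (0.537). P4ha1, a subunit of the enzyme that hydroxylates prolines of collagen, ranged from 36.1 to 71.5 CPM. Cops8, a subunit of the COP9 signalosome, ranged from 60.9 to 76.4 CPM. With Pearson's r in place of rho, 4 of these 10 were again among the first 10.

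**Figure D4:**
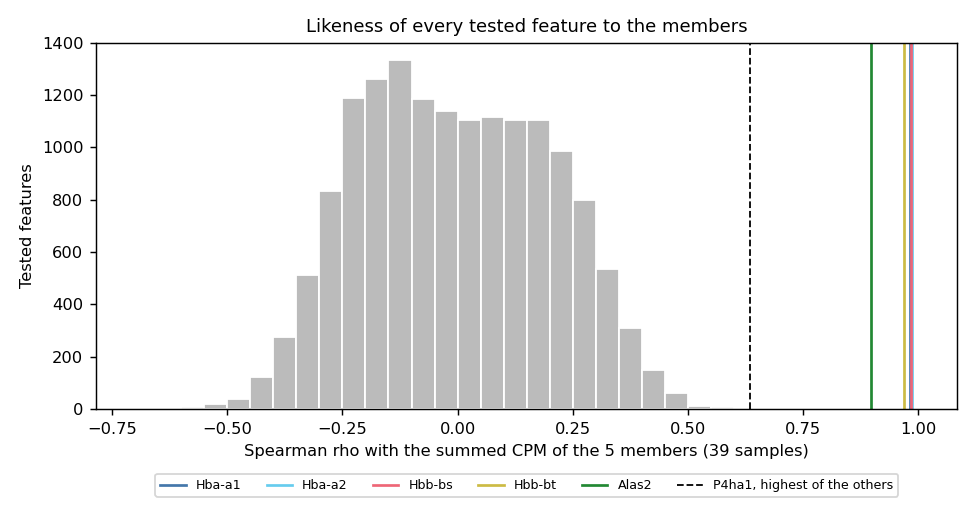
Number of tested features by their Spearman rho with the summed CPM of the 5 members over 39 samples (grey bars, width 0.05), with the members as colored lines and P4ha1, the closest other feature, as a dashed line. The members lie at 0.898 to 0.987, each being part of the sum, and no other feature lies above 0.634.

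Other globins were low or did not vary with the members. The embryonic genes Hba-x and Hbb-bh1, and Hbb-bh0, Hbb-bh2 and Hbb-bh3 of the beta cluster, had no count in any sample, where 3 counts would be 0.108 to 0.188 CPM. Hbb-y, also embryonic, had 39 counts in all, and the theta genes Hbq1a and Hbq1b had 117 and 58. Mb (myoglobin) had 48, and Adgb (androglobin) had 417. Cygb (cytoglobin) had a mean of 49.7 CPM and a rho of -0.09 with the members. Ngb, the neuronal neuroglobin, ranged from 1.01 to 7.40 CPM with a rho of 0.06. After 1xCHI its log2 fold change against Sham was 1.15 (SE 0.37, edgeR adjusted p = 0.246). The 2 tested genes of this list had 0 calls in 30 tests by edgeR and by DESeq2, and 3 at an unadjusted p under 0.05. Over all features and the 15 comparisons, 6.99% of tests had an unadjusted p under 0.05, which is the share to read beside this and each following count of that kind.

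Genes that define the red cell membrane and erythroid maturation were mostly at or near 0, although 2 of the globins were above 60 CPM on average. Slc4a1, the band 3 anion exchanger, had 59 counts over all 39 samples, 25 of which had any, and a rho of 0.45 with the members. Epb42 (protein 4.2) had 16 counts, Kel 3, Hemgn 18, Trim10 28, Tspo2 29, Car1 (carbonic anhydrase 1) 31 and Rhd 38 over all samples. Rhag had none. Isg20 and Ermap had means of 0.487 and 0.688 CPM, and Aqp1 of 1.12 CPM. The 7 genes of the list at tested levels are also used by brain cells: Sptb (199 CPM on average), Bnip3l (135), Bpgm (51.0), Slc25a37 (46.3), Epor (5.19), Tent5c (3.07) and Gypc (2.31). Bpgm, which makes 2,3-bisphosphoglycerate, had a rho of 0.34 and Slc25a37, the mitochondrial iron importer mitoferrin, 0.17. Of the 22 genes listed, 21 were in the table and 20 were counted. They had 0 calls in 105 tests by edgeR and by DESeq2, and 8 at an unadjusted p under 0.05 (background 6.99%). The erythroid transcription factor gene Gata1 had no count, Klf1 had 55, Nfe2 28 and Gfi1b 2 over all samples. Bcl11a (106 CPM on average), Zfpm1 (30.3), Lmo2 (10.9) and Tal1 (1.45) were tested, with 0 calls in 60 tests by both tools and 2 unadjusted.

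The remaining enzymes of heme synthesis followed the members far less closely than Alas2, with rho between -0.41 (Alas1) and 0.36 (Urod). Alas1, the form found in all tissues, had a mean of 44.8 CPM and a rho of -0.41 with the members, Fech (ferrochelatase) 54.3 CPM and -0.26, and Cpox 42.4 CPM and 0.01. Summed over 8 enzymes the range was 246 to 296 CPM, against the 5.91-fold range of the globin sum. The list had 0 calls in 120 tests by edgeR and by DESeq2, and 17 at an unadjusted p under 0.05 (background 6.99%). The tests of a list share samples and controls, so this count is a description. Of the genes that clear hemoglobin and store its iron, Fth1 (ferritin heavy chain) had a mean of 1645 CPM and a rho of 0.26, Lrp1 396 CPM and -0.27, and Trf 251 CPM and 0.00. This list had 0 calls in 165 tests by both tools, and 10 unadjusted. Hmox1, the inducible heme oxygenase, was picked after its values were seen. It ranged from 2.21 to 176 CPM with a rho of -0.32. Samples 11 (5xCHI at 24 h) and 10 (5xCHI at 4 h) had 176 and 120 CPM, and the next highest sample had 12.6 CPM. Its log2 fold change after 5xCHI against Sham was 2.59 (SE 0.85, edgeR adjusted p = 0.448) and, without sample 11, 1.44 (SE 0.55, adjusted p = 0.602).

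The label of blood content was set beside markers of other blood cells. Summed over 12 genes, neutrophil markers came to 0.902 to 16.2 CPM and had a rho of -0.04 with the globin sum. S100a8 and S100a9 had 140 and 251 counts over all samples, and Mmp9 and Lcn2 had the highest means, 1.51 and 0.985 CPM. Platelet markers, summed over 11 genes, came to 4.02 to 7.98 CPM with a rho of 0.08. Ppbp had 55 counts over all samples, Pf4 a mean of 0.804 CPM, and Itga2b and Gp5 means of 1.53 and 0.810 CPM. Lymphocyte markers came to 24.7 to 70.2 CPM with a rho of 0.05, mainly through Ighm at 41.6 CPM and Trbc2 at 8.04 CPM, with Cd4 at 1.49 CPM, and monocyte markers to 22.1 to 45.6 CPM with a rho of -0.34, mainly through Vcan and Ace, with Ccr2 at 0.460 CPM. Most of the single markers were at a few counts per sample, and the larger sums rest on Ighm, Vcan and Ace, so these rho values say little about white cells or platelets. Whether the globin level measures the blood left in the tissue was not tested.

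Markers of the vessel wall and of neighbouring tissues were better counted. Endothelial markers, summed over 15 genes led by Slc2a1, Flt1 and Slco1c1, ranged from 252 to 461 CPM with a rho of 0.00. Mural markers such as Rgs5, Vtn and Pdgfrb ranged from 178 to 346 CPM with a rho of -0.04. Meningeal markers, led by Igf2, Col1a2 and Islr, ranged from 67.9 to 577 CPM with a rho of -0.15. Choroid plexus markers, led by Ttr, Kl and Clic6, ranged from 4.10 to 2534 CPM with a rho of 0.13. Neuronal markers, which the labelled tissue should hold, came to 5958 to 9726 CPM, led by Snap25, Syt1 and Slc17a7, with a rho of -0.10. By edgeR and by DESeq2, each of these 5 lists and the 4 blood cell lists had 0 calls. At an unadjusted p under 0.05, beside 6.99% over all features, there were 18 of 225 tests in the endothelial list, 2 of 135 in the mural, 16 of 180 in the meningeal, 7 of 45 in the choroid plexus and 10 of 150 in the neuronal. Beside the same background there were 0 of 15 in the neutrophil list, 6 of 45 in the platelet, 1 of 30 in the lymphocyte and 5 of 30 in the monocyte list.

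**Figure D5:**
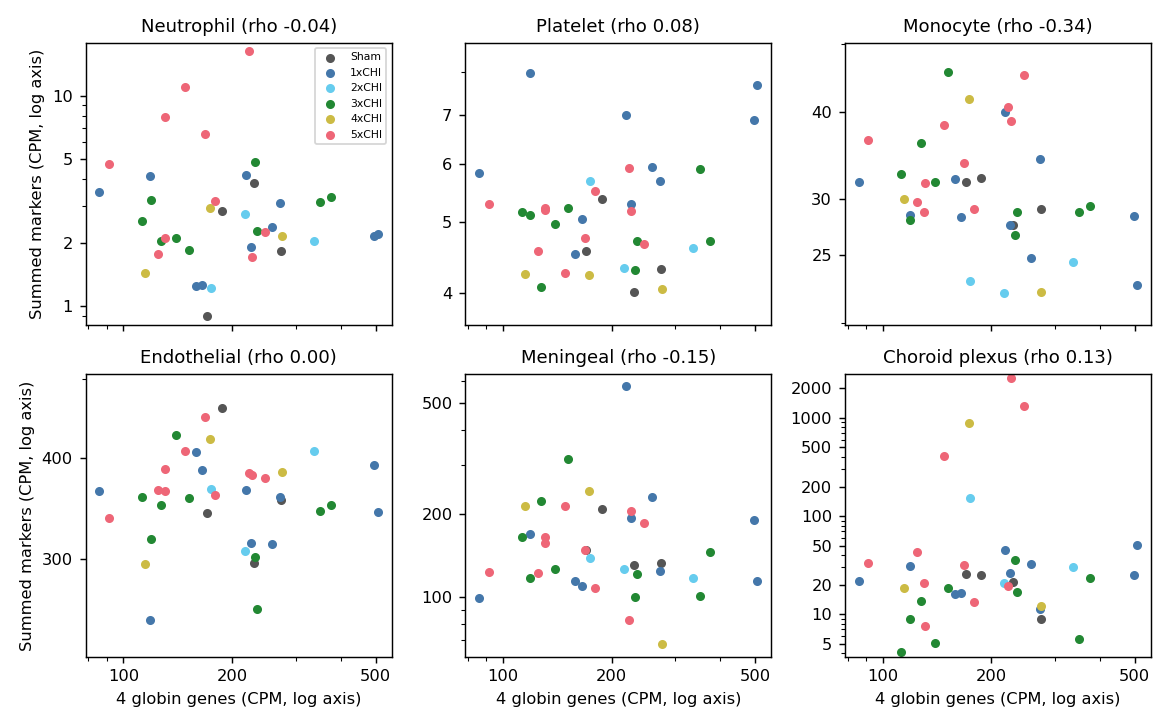
Summed CPM of marker genes for 6 cell types or tissues against the summed CPM of the 4 globin genes, 1 point per sample (39 samples), colored by number of injuries, on log axes, with Spearman's rho in each title. The rho with the globin sum runs from -0.34 to 0.13, and choroid plexus markers span 4.10 to 2534 CPM.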

How the data were processed

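RNA from 40 left somatomotor cortices was sequenced, aligned and counted by a sequencing company for the authors, who deposited an estimated count per gene and sample, neither normalized nor filtered. The aligner and its version are not given in the sources used here. The submitters' processing notes name mm10, and gene identifiers matched GENCODE M21 (GRCm38). Estimated counts were rounded to whole numbers before testing.

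A feature entered the test when at most 4 of the 39 samples held under 10 counts of it. This kept 15224 features and all 5 members. Tests used edgeR 4.0.16 (TMM, quasi-likelihood, 12 groups in 1 fit, Benjamini-Hochberg adjusted p under 0.05) in R 4.3.3, and DESeq2 1.42.0 as an alternative. The fit was tested on simulated data with the same spread set for every gene, for 1xCHI at 24 h against Sham. It found 93 of 100 changes of 1 log2 unit, with 12 false calls. The spread of the members was not the setting, so the simulation does not show what could be detected for them. CPM, ratios and correlations were computed in Python 3.11.15 (scipy 1.17.1). For the SD and variance shares of tested features, and their Pearson r with the summed members, 0.5 was added before log2. Nothing was added for the correlations between members and between their sums, or for the SDs of ratios. Promoters came from RefSeq (GRCm38.p6), with all 5 members matched, and motifs were searched in 32851 promoters.

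Libraries were compared within groups, and in 46 of 46 pairs the counts differed by more than sampling noise (chi-square per feature 6.85 to 130). Samples were taken as separate mice, as the study describes, and p-values measure the spread between them. The members and the gene lists were chosen with earlier results of these data known. Genes named are the members, the counted genes of the other globins and of the erythroid membrane list, the 3 most abundant genes of the other lists, and the 10 features most like the members by Spearman's rho. Some genes that this rule names are not reported here. Others are named where their values were of use and were chosen after these were seen. Depth was 15925995 to 27859530 counts per sample. Alternatives tried were DESeq2, scaling by library size, library sizes without the members, other filters, all 40 samples, sample number or its split as a covariate, and leaving out each sample. DESeq2 and the split as a covariate, both without sample 27, were added after the values were seen.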

Additional observations from a re-analysis of the deposited data

Results flagged for a closer look

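A sample far from the rest was looked for in 7 sets of samples (the 4 groups of 4 samples, and all samples after 1xCHI, 3xCHI and 5xCHI) for each of 6 measures, the 5 members and the globin sum. Of these 42 checks 2 found one, where chance at 1 in 20 gives about 2.1. The measures vary together and the sets share samples, so the checks are not independent. Alas2 was 4.60 CPM in sample 2 (3xCHI at 24 h), with the nearest other sample of its group at 1.69 CPM. The globin sum of sample 2, 376 CPM, was also the highest of that group. Hba-a1 was 55.7 CPM in sample 11 (5xCHI at 24 h), with the nearest at 35.0 CPM, and the globin sum of sample 11, 223 CPM, was the highest of its group.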

How the results depend on the processing

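The number of members called was 0 for the number of injuries and between times under every alternative run, and after each injury it was 0 to 4 when each sample was left out in turn. It was 0 without any sample other than 27, the smallest adjusted p being 0.142. Without sample 27 of 1xCHI at 30 min it was 4 with edgeR, 3 with DESeq2 and 0 with the split of sample numbers as a covariate. In the same order, 13.0%, 14.6% and 1.86% of all features were called higher. The globin log2 fold changes with the covariate (1.2 for Hba-a1 to 1.36 for Hbb-bt) were as large as without it. In these fits 2 samples stood for the group. Over the alternatives with all 39 or 40 samples, the Hba-a2 log2 fold change at 30 min after 1xCHI against Sham ran from 0.75 to 0.87 (adjusted p 0.257 to 0.463), and leaving out 1 sample moved it from 0.57 to 1.33 (adjusted p 0.0246 to 0.885). Mean ratios moved by less than 1 SD: alpha per beta stayed between 1.25 and 1.26, and Hbb-bs per Hbb-bt between 4.46 and 4.64. With Pearson's r in place of Spearman's rho, 4 of the 10 most alike features were shared. With SE of 0.34 to 0.70 on the log2 scale, the spread between mice limited what could be detected for the globin genes, and for Alas2 also its 8 to 98 counts per sample. No paired analysis was possible because sample numbers run from 1 to 40 and no number is shared between groups.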
